A study of Mus musculus with 6 samples.

Results

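The 49 genes described here encode cathepsins and other lysosomal proteins and the core proteins of autophagy. They were chosen as a named list, with 29 lysosome genes and 20 autophagy genes, from the 23420 genes measured by RNA-seq. All 49 were found, and all 49 were over the level of 10 reads in 3 or more of the 6 samples, as were 11233 genes in all. The samples were splenic B cells, bead purified from wild-type BALB/c mice aged 7-11 weeks, with 3 mice named for the experiment. In the CpG-stimulated group (n = 3), 10 M cells at 10 M/mL were cultured for 4 hours with CpG ODN 1826 at 10 µg/mL, a DNA oligonucleotide that activates TLR9. In the unstimulated group (n = 3), the same cells were cultured without agonist. Replicates 1 and 2 of each group came from female mice and replicate 3 from male mice. The whole purified B cell population was cultured, so the values average over its subsets.

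Lysosomes break down proteins, glycans and lipids with acid hydrolases. The vacuolar ATPase (V-ATPase) pumps the protons that these enzymes need, and the proteins of the lysosomal membrane carry the breakdown products out. In macroautophagy, a double membrane closes around cytosol or organelles and fuses with the lysosome. ULK kinases start the process, the Beclin 1 complex and WIPI proteins nucleate the membrane, a pair of ubiquitin-like conjugation systems attach Atg8 proteins (LC3 and GABARAP) to lipid, and receptors such as p62 tether cargo to Atg8. Transcription factors of the MiT/TFE family (TFEB, TFE3 and MITF) activate many of these genes through an E-box-like promoter motif. In B cells, the same compartments process antigen for MHC class II, and endolysosomes are where nucleic acid-sensing TLRs are cleaved and meet their ligands.

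Most of the list was lower after 4 hours of CpG. In CpG-stimulated B cells, 33 of the 49 genes (67.3%) fell, 7 (14.3%) rose and 9 did not pass the test, where rose and fell mean a false discovery rate (FDR) below 0.05 over all genes tested. Among all 11233 genes tested, 36.7% fell and 37.6% rose. The median log2FC (CpG-stimulated minus unstimulated) of the 49 was -0.55, with quartiles of -1.14 and 0.08, whereas that of all genes tested was 0.0033, with quartiles of -0.62 and 0.65. A log2FC below -1 with an FDR below 0.05 was found in 14 of the 49, against 15.3% of all genes tested, and one above 1 in 3 of them, against 15.8%. The values of the groups did not overlap in most of the 49: CpG-stimulated cells were lower in 32, against 38.6% of all genes tested, and higher in 8, against 39.1%.

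The lysosome and autophagy parts of the list gave like counts. Of the 29 lysosome genes, 19 fell and 4 rose (median log2FC -0.40), and of the 20 autophagy genes, 14 fell and 3 rose (median log2FC -0.59). The summed level of all 49 genes was 3691, 4088 and 3735 CPM (counts per 1 M reads) in CpG-stimulated replicates 1, 2 and 3 and 5524, 5548 and 5583 CPM in the unstimulated replicates, a ratio of 0.691. Samples were scaled to 1 common distribution of values before deposit, so these differences are relative to other transcripts, and a change in total RNA per cell cannot be seen. In these bulk samples, fewer cells of a type and less RNA per cell cannot be told apart.

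**Figure D1:**
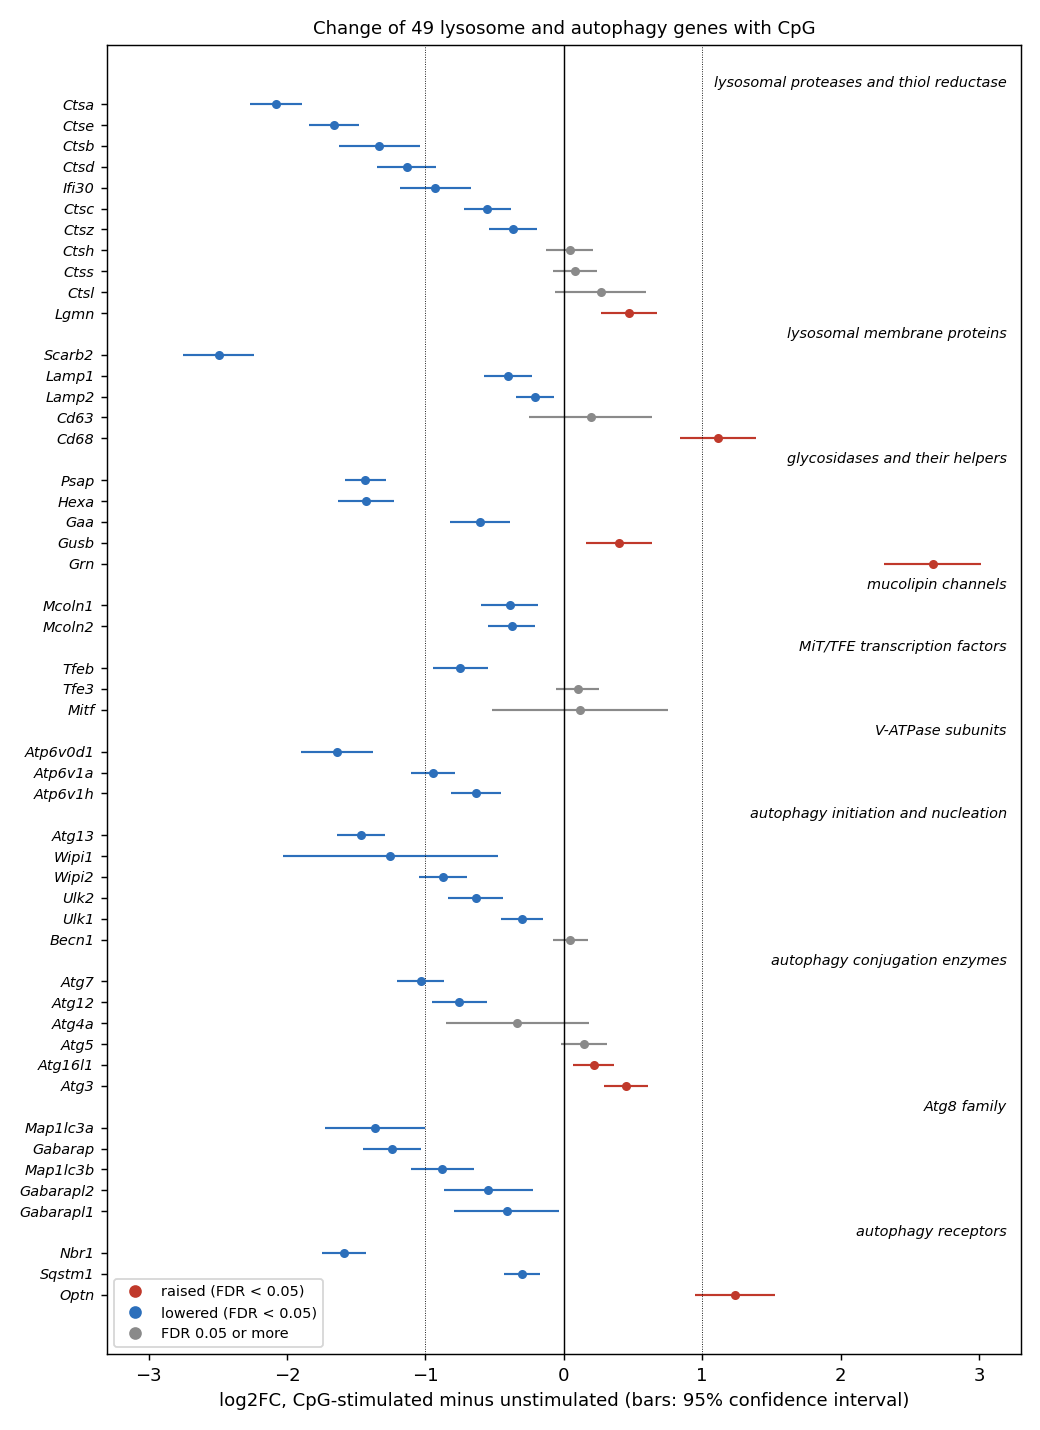
Log2FC of each of the 49 genes (x axis, CpG-stimulated minus unstimulated, n = 3 in each group), with 95% confidence intervals as bars and genes ordered by role and then by log2FC. Points of 33 genes that fell lie left of 0, from Scarb2 at -2.49, and those of 7 that rose lie right of 0, up to Grn at 2.66; dotted lines mark a log2FC of -1 and 1.

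The samples were checked against marker genes of the cells they could hold. B cell markers were high in all samples (Cd22, Cd79a, Cd79b, Cr2, Ms4a1, Pax5 and Blk, with a median of the 7 means of 7.79 log2 CPM). Their summed level was lower in CpG-stimulated (10.88 to 11.14) than in unstimulated cells (11.68 to 11.92), but they did not move as a set. Ms4a1 was higher with CpG without overlap (9.344 to 9.527 against 8.569 to 8.86), Cr2 overlapped, and Cd22, Cd79a, Cd79b, Pax5 and Blk were lower. Macrophages are rich in lysosomes, and the summed level of 12 macrophage and monocyte markers was 3.48 to 3.97 in CpG-stimulated and 3.09 to 4.02 in unstimulated samples, so the sums overlapped. Emr1 made up most of the sum, and its range was higher with CpG (2.755 to 3.403 against 1.955 to 2.764), with a small overlap. Cd14 (-1.48 to -0.96 with CpG and -0.35 to 1.203 without), Csf1r and Vcam1 were lower with CpG without overlap. Each of these was below the level of 10 reads in every CpG-stimulated sample. Only 5 of these 12 were over the level of 10 reads in 3 samples, and the defining markers Fcgr1 and Mertk were below the level of 3 reads in every sample. The summed level of 8 dendritic cell markers was higher with CpG (6.86 to 7.08 against 5.55 to 5.79), carried by Flt3, Zbtb46 and Bst2. Ccr9 was lower with CpG without overlap (-0.614 to 0.112 against 0.476 to 0.931). Xcr1, Clec9a, Siglech and Itgax had means of -1.93 or lower. The 5 neutrophil markers summed to -1.36 to -0.22 with CpG and -0.63 to 0.79 without, and none of them was tested. T and NK cell markers summed to 0.31 to 0.83 with CpG and -1.02 to -0.69 without, none of the 9 was tested, and Klrb1c alone was over -1 in any sample. The 5 plasma cell markers summed to 11.41 to 11.54 with CpG and 10.99 to 11.18 without, mostly Irf4, whereas Sdc1, Igj and Xbp1 were lower with CpG without overlap. Erythroid markers ranged from 8.58 to 12.26 and from 8.66 to 11.91, and in both groups replicate 2 was the highest. The part of these lists in the results below was not tested.

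CpG-stimulated replicate 2 also stood apart within its group for the lysosome and autophagy genes. It was the highest of the 3 CpG-stimulated samples in 35 of the 49 genes (71.4%), against 35.1% of all genes tested. Unstimulated replicate 2 was the highest of its group in 17 of the 49 (34.7%), against 29.3% of all genes tested. The median SD of the 49 genes was 0.137 in CpG-stimulated and 0.076 in unstimulated samples. Without both samples numbered 2, 7 genes rose and 33 fell, and the median log2FC was -0.54.

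The promoters of the list were searched for the MiT/TFE motif, because Tfeb, Tfe3 and Mitf are on the list. Many genes of this kind are known targets of these factors, as given above. A higher share with the motif is therefore a description and not an independent test. The promoter sequences are those of RefSeq on GRCm38.p6, from 250 bases before to 50 bases after a RefSeq start. Of the 49 genes, 41 had such a promoter, some with several. A gene was counted if any of its promoters held a match. Both strands were searched for CACGTG, the core E-box, for TCACGTG and GTCACGTG, longer forms that contain it, and for TCATGTG, in which 1 base of the core differs. TCACGTG was present in promoters of 11 of the 41 genes (26.8%). It was in those of 4.29% of 27025 genes in all and of 7.43% of 8400 genes tested here. CACGTG was present in 34.1% of the 41, compared with 8.09% and 12.36%, and GTCACGTG in 22.0%, compared with 2.55% and 5.23%. The longer CLEAR palindrome was in promoters of 0 of the 41 genes, 0.37% of all genes and 0.94% of tested genes. A match is a run of letters and does not show binding.

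A window of 27 bases around 1 match in each of the 11 genes is given, to show where the motif lies. Each is 5′ to 3′ on the strand given, with TCACGTG in capitals.
Atg3, chr16:45158747-45158773, plus strand: gagagtcgagTCACGTGaggccttagg
Atg7, chr6:114670953-114670979, plus strand: atattggtggTCACGTGtgcagtaagt
Atp6v0d1, chr8:105566052-105566078, minus strand: cctactgcggTCACGTGagacgcggtg
Atp6v1a, chr16:44139374-44139400, plus strand: gttaagcctaTCACGTGatttaaaaaa
Ctsa, chr2:164833768-164833794, minus strand: gtagctctggTCACGTGagcatctgca
Ctsd, chr7:142387909-142387935, plus strand: cctcaacgggTCACGTGagacgcgggc
Gaa, chr11:119267812-119267838, plus strand: ttctgtgcgaTCACGTGtttgactctg
Ifi30, chr8:70766843-70766869, plus strand: gcatgtctggTCACGTGaagtttttgg
Lamp1, chr8:13159123-13159149, minus strand: cgtgatgtggTCACGTGccagtcggca
Lgmn, chr12:102439126-102439152, minus strand: ggaatgtctgTCACGTGgtccatttta
Mcoln1, chr8:3500464-3500490, minus strand: tgcgccgcggTCACGTGagcggggcgc

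Where a gene held several matches, one with a G just before TCACGTG, and then one with an A just after it, was shown. Nothing is therefore read from how often these bases flank the motif. TCACGTG followed by A reads as TCACGTG on the other strand as well, so such a match was found on both strands and is 1 place. In the windows shown, the first base of the motif lay between positions -196 and 6 from the RefSeq start. Such a start can lie inside the gene as annotated by GENCODE. The window of Atg7 is far inside its gene, which begins at chr6:114643097 there. Those of Atp6v1a, Ctsa, Ctsd, Lgmn and Mcoln1 are also inside their genes. Lamp1 had 4 separate matches, at -62, -45, -28 and -16, and its 250 bases before the start are shown with each match in capitals on the plus strand, where those on the minus strand read CACGTGA.
Lamp1, chr8:13158911-13159160, plus strand: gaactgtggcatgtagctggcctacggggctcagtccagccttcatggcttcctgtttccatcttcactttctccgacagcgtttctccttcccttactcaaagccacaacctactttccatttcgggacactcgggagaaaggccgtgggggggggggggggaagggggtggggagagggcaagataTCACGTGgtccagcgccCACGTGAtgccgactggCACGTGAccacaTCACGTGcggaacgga

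Grn, the gene of the list with the highest log2FC, held TCATGTG, in capitals here, with its first base at position -210, and no match to the other motifs. Ctsa, Ctss and Scarb2 also held TCATGTG. It was thus present in promoters of 9.8% of the 41 genes, compared with 4.31% of all and 2.68% of tested genes.
Grn, chr11:102430287-102430313, minus strand: tttctagggaTCATGTGattagagaat

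The genes with TCACGTG moved in both directions. Of the 11, 9 fell (Ctsa, Ctsd, Ifi30, Lamp1, Gaa, Mcoln1, Atp6v0d1, Atp6v1a and Atg7) and 2 rose (Lgmn and Atg3), with a median log2FC of -0.93. Of the other 30 genes with a promoter sequence, 19 fell, 4 rose and 7 did not pass the test, with a median log2FC of -0.37. Over the 8400 tested genes with a promoter sequence, those with TCACGTG fell in 41.2% and rose in 34.5%. Those without it fell in 37.0% and rose in 37.3%.

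Of the MiT/TFE genes themselves, Tfeb fell and the other two did not pass the test. Tfeb was 4.95, 5.15 and 5.16 log2 CPM in CpG-stimulated replicates 1, 2 and 3 and 5.72, 5.94 and 5.84 in the unstimulated replicates. All 3 CpG-stimulated samples were below all unstimulated samples, with a log2FC of -0.75 (SE 0.09, FDR 2.63e-05). Tfe3 was 6.36, 6.55 and 6.50 with CpG and 6.40, 6.41 and 6.31 without, so the groups overlapped, and its log2FC was 0.10 with a 95% confidence interval of -0.06 to 0.26 (FDR 0.224). Mitf was at the low end of the list, at 0.44, 0.22 and 0.01 with CpG and -0.14, 0.08 and 0.38 without. Its log2FC of 0.12 had an interval of -0.52 to 0.75, so a change of that size in either direction was not detectable in these samples.

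Among the proteases, the carboxypeptidase Ctsa and the aspartic protease Ctse fell the furthest. Of the 11 proteases, counted with the thiol reductase Ifi30, 7 fell, 1 rose and 3 did not pass the test. Thus 63.6% fell and 9.1% rose, against 36.7% and 37.6% of all genes tested. Ctsa, cathepsin A, which also protects β-galactosidase and sialidase in the lysosome, was 4.19, 4.45 and 4.43 log2 CPM with CpG and 6.47, 6.41 and 6.44 without. Its groups were far apart with no overlap, and its log2FC was -2.08 (SE 0.08, FDR 3.31e-08), 4.24-fold lower. Ctse, an endosomal aspartic protease of antigen-presenting cells, was 5.34, 5.25 and 5.07 with CpG and 6.90, 6.82 and 6.92 without. It was lower in all CpG-stimulated samples, with a log2FC of -1.66 (SE 0.08, FDR 6.9e-08). Ctsb, a cysteine protease that cuts both within chains and at their ends, was 4.70, 5.28 and 4.84 with CpG and 6.22, 6.34 and 6.27 without. The groups did not overlap, although CpG-stimulated replicate 2 was the nearest to the unstimulated samples, and the log2FC was -1.33 (SE 0.13, FDR 7.33e-06). Ctsd, the main lysosomal aspartic protease, fell with a log2FC of -1.14.

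The proteases with the best known roles in MHC class II antigen presentation did not move together. Ctss, which in B cells trims the invariant chain from MHC class II, was 8.19, 8.41 and 8.23 log2 CPM with CpG and 8.18, 8.16 and 8.25 without, and the groups overlapped. Its log2FC of 0.08 had a 95% confidence interval of -0.08 to 0.24, which does not reach the size of the falls of Ctsa and Ctse. Ifi30, which encodes GILT, the reductase that opens disulfide bonds of antigens, had the highest level of the list per exon length in both groups. It was 8.19, 8.72 and 8.48 log2 CPM with CpG and 9.40, 9.31 and 9.48 without. The groups did not overlap, and the log2FC was -0.93 (SE 0.12, FDR 3.97e-05). Lgmn, the asparagine endopeptidase, which cleaves antigens, the invariant chain and TLR9, was the protease that rose, with a log2FC of 0.47 (SE 0.09, FDR 0.000905).

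The remaining cathepsins changed by less. Ctsc, the dipeptidyl peptidase that activates granule proteases, fell with a log2FC of -0.55, and Ctsz, a carboxypeptidase, with one of -0.37. Ctsh, an aminopeptidase, had a log2FC of 0.04 (interval -0.13 to 0.21, FDR 0.624). Ctsl, an endopeptidase, had a log2FC of 0.27 (interval -0.06 to 0.60, FDR 0.126), and it passed the threshold without CpG-stimulated replicate 1 (log2FC 0.38, FDR 0.047). Reads in several of these genes may be split or shared, because the use of strand in counting is not stated. Ctsb shared 12.8% of its exon bases with Fdft1 on the opposite strand, and Fdft1 rose with a log2FC of 1.34. Ctsa shared 10.5% with Pltp, which fell with a log2FC of -1.62, Ctsl shared 26.8% with an antisense gene, and Ctsd shared 34.4% with a gene model on the same strand.

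Among the lysosomal membrane proteins, Scarb2 fell by more than any other gene of the list and Cd68 rose. Scarb2 encodes LIMP-2, the receptor that carries β-glucocerebrosidase to the lysosome. It was 2.61, 2.92 and 2.55 log2 CPM with CpG and 5.16, 5.14 and 5.26 without. Every CpG-stimulated sample was over 2 log2 units below every unstimulated sample, and the log2FC was -2.49 (SE 0.11, FDR 5.66e-08), 5.63-fold lower. Lamp1, the abundant glycoprotein that lines the lysosomal membrane, was 7.50, 7.64 and 7.51 with CpG and 7.80, 8.02 and 8.04 without. It was lower in all CpG-stimulated samples, by a smaller log2FC of -0.40 (SE 0.08, FDR 0.000809). Lamp2, which also serves chaperone-mediated autophagy, fell with a log2FC of -0.21 (FDR 0.0116).

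Cd68, a heavily glycosylated membrane protein best known from macrophage endolysosomes, was 3.34, 3.47 and 3.42 log2 CPM with CpG and 2.43, 2.23 and 2.23 without. All CpG-stimulated samples were above all unstimulated samples, with a log2FC of 1.11 (SE 0.12, FDR 1.74e-05). The summed level of the 12 macrophage and monocyte markers overlapped between the groups, as given above. Emr1, most of that sum, had a higher range with CpG (2.755 to 3.403 against 1.955 to 2.764), with a small overlap. Cd14, Csf1r and Vcam1, at low levels, were lower with CpG without overlap. Cd68 begins 782 bases after the end of Eif4a1 on the same strand, and Eif4a1, at 11.06 against 9.61 log2 CPM, rose with a log2FC of 1.44. The part of the neighbouring gene in the Cd68 value was not tested. Cd63, a tetraspanin of late endosomes, was low in both groups, with a log2FC of 0.19 (interval -0.25 to 0.64, FDR 0.401).

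The glycosidases and their helper proteins held both the gene that rose the most and a pair that fell by nearly the same amount. Grn encodes progranulin, a secreted and lysosomal protein that is cut into granulins and that binds prosaposin. Grn was 8.10, 7.56 and 7.94 log2 CPM with CpG and 5.52, 4.97 and 5.12 without. Every CpG-stimulated sample was over 2 log2 units above every unstimulated sample, and the log2FC was 2.66 (SE 0.16, FDR 2.22e-07), 6.34-fold higher. Psap, prosaposin, the precursor of the saposins that help hydrolases reach sphingolipids, moved the other way. It was 7.48, 7.52 and 7.42 with CpG and 9.01, 8.84 and 8.88 without. The groups did not overlap, with a log2FC of -1.43 (SE 0.06, FDR 5.25e-08).

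Hexa, the α subunit of β-hexosaminidase, which degrades GM2 ganglioside, was 4.24, 4.47 and 4.16 log2 CPM with CpG and 5.71, 5.73 and 5.72 without. The unstimulated samples were nearly equal and all above the CpG-stimulated samples, with a log2FC of -1.43 (SE 0.09, FDR 3.42e-07). Gaa, which degrades lysosomal glycogen, fell with a log2FC of -0.61, and Gusb, β-glucuronidase, rose with one of 0.40 (FDR 0.0065). Both genes for mucolipins, the calcium channels of the endolysosomal membrane, fell. Mcoln2, the higher of the pair in log2 CPM, was 4.65, 4.57 and 4.65 with CpG and 5.07, 4.95 and 4.99 without. Its groups did not overlap and its log2FC was -0.38 (SE 0.08, FDR 0.00126), next to -0.39 for Mcoln1.

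**Figure D2:**
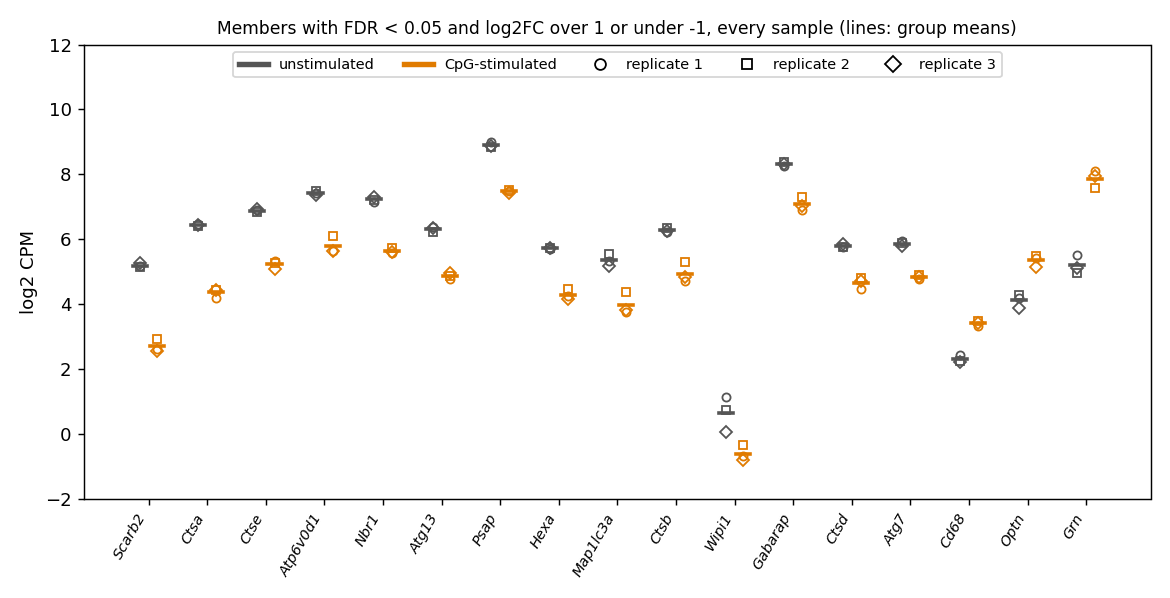
Level in log2 CPM (y axis) of the 17 genes with an FDR below 0.05 and a log2FC above 1 or below -1, with 1 point per sample, shapes for replicate numbers and lines for group means. CpG-stimulated samples are below all unstimulated samples in 14 genes, from Scarb2 to Atg7, and above them in Cd68, Optn and Grn.

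The V-ATPase subunits of the list all fell, against 36.7% of all genes tested. Atp6v0d1, which joins the membrane sector of the pump to its stalk, was 5.62, 6.09 and 5.64 log2 CPM with CpG and 7.42, 7.50 and 7.35 without. The groups were over 1 log2 unit apart, and CpG-stimulated replicate 2 was again the nearest to the unstimulated samples. The log2FC was -1.64 (SE 0.12, FDR 6.79e-07). Atp6v1a, the catalytic subunit, and Atp6v1h, a regulatory subunit of the cytosolic sector, fell with log2FCs of -0.95 and -0.63. The summed level of the 3 subunits was 137.5 ± 16.1 CPM with CpG and 312.4 ± 5.8 CPM without (SD, n = 3).

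Among the genes that start autophagy, 5 of 6 fell (83.3%, against 36.7% of all genes tested). Atg13, the adaptor that holds the ULK kinase complex together, was 4.76, 4.86 and 4.94 log2 CPM with CpG and 6.37, 6.23 and 6.36 without. All CpG-stimulated samples were lower, with a log2FC of -1.47 (SE 0.08, FDR 1.05e-07). The kinases Ulk1 and Ulk2 fell by less, with log2FCs of -0.30 and -0.64. Becn1, Beclin 1 of the class III PI3-kinase complex, had the highest log2 CPM of these genes, at 6.93, 6.92 and 6.96 with CpG and 6.89, 6.93 and 6.85 without. Its groups overlapped, and the log2FC of 0.05 had an interval of -0.08 to 0.17 (FDR 0.489). Becn1 shares 43.9% of its exon bases with Cntd1 on the opposite strand, which was at -0.46 and -1.15 log2 CPM.

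Both WIPI genes, which encode proteins that read the lipid mark of the nascent membrane, fell. Wipi2 fell with a log2FC of -0.87 (FDR 3.36e-06). Wipi1 was the second lowest gene of the list in log2 CPM without CpG and the lowest with it, at -0.70, -0.36 and -0.80 with CpG and 1.14, 0.72 and 0.04 without. The groups did not overlap, with a log2FC of -1.25 (SE 0.35, FDR 0.00786). Only 2 of its 3 CpG-stimulated samples, and all 3 unstimulated samples, were over -0.76, the level of 10 reads, so it was tested through the group where it was high. With 10 reads required in all 6 samples, Wipi1 was not tested, 32 genes of the list fell and 13 had a log2FC below -1.

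The conjugation enzymes were split, with 2 that rose (33.3%), 2 that fell (33.3%) and 2 that did not pass the test. These shares are near those of all genes tested (37.6% rose and 36.7% fell). Atg12, the ubiquitin-like protein that is joined to Atg5, had the highest log2 CPM of the conjugation genes averaged over both groups. It was 5.26, 5.49 and 5.43 with CpG and 6.002, 6.25 and 6.20 without. The groups did not overlap, and the log2FC was -0.75 (SE 0.09, FDR 2.89e-05). Atg7, the E1-like enzyme of both conjugation systems, fell with a log2FC of -1.04 (FDR 7.92e-07). Atg3, the E2-like enzyme for Atg8, rose with a log2FC of 0.45 (FDR 0.000222), and Atg16l1, which places the Atg12-Atg5 conjugate on membranes, rose with one of 0.22 (FDR 0.013). Atg5 had a log2FC of 0.14 (interval -0.02 to 0.31, FDR 0.107), although its values did not overlap. Atg4a, a protease that processes Atg8 proteins, had a log2FC of -0.34 (interval -0.85 to 0.18, FDR 0.209), and 52.0% of its 75-base stretches are also found in another gene, mainly its pseudogene.

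All 5 Atg8 genes fell, against 36.7% of all genes tested. Gabarap, the highest of them per exon length, was 6.90, 7.29 and 7.03 log2 CPM with CpG and 8.26, 8.37 and 8.32 without. The groups were close to 1 log2 unit apart, with a log2FC of -1.24 (SE 0.09, FDR 1.06e-06). Map1lc3a, which encodes LC3A, was 3.76, 4.37 and 3.81 with CpG and 5.32, 5.55 and 5.17 without. All CpG-stimulated samples were lower, and replicate 2 was the highest in both groups, with a log2FC of -1.37 (SE 0.16, FDR 2.77e-05). Map1lc3b, which encodes LC3B, and Gabarapl2 fell with log2FCs of -0.88 and -0.55. Gabarapl1 was the gene nearest to the threshold, with values that overlapped between the groups, a log2FC of -0.41 (SE 0.17, FDR 0.0473), and no call when any 1 of 4 samples was left out (FDR 0.126 to 0.158). The summed level of the 5 genes was 273.4 ± 44.2 CPM with CpG and 557.6 ± 26.3 CPM without (SD, n = 3), a ratio of 0.49.

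The cargo receptors went in both directions. Nbr1, which binds ubiquitinated cargo and Atg8, was 5.57, 5.74 and 5.62 log2 CPM with CpG and 7.16, 7.22 and 7.31 without. The groups were over 1 log2 unit apart, with a log2FC of -1.59 (SE 0.07, FDR 5.01e-08). Sqstm1, which encodes p62, the most abundant receptor of the list, was 8.49, 8.53 and 8.46 with CpG and 8.82, 8.83 and 8.74 without. The groups did not overlap, and the fall was small, with a log2FC of -0.30 (SE 0.06, FDR 0.000795). Optn, optineurin, a receptor that also binds ubiquitin chains in NF-κB signaling, was 5.43, 5.49 and 5.13 with CpG and 4.19, 4.29 and 3.87 without. All CpG-stimulated samples were higher, with a log2FC of 1.23 (SE 0.13, FDR 1.13e-05).

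Compared per kilobase of exon, the levels of the list spanned a wide range, and Grn and Optn moved up the order with CpG. In unstimulated cells, the highest levels on the log2 scale of CPM per kilobase were those of Ifi30 (9.42), Ctsz (8.14), Ctss (7.76), Psap (7.45) and Gabarap (7.43). With CpG, the highest were Ifi30 (8.49), Ctss (7.84), Ctsz (7.77), Sqstm1 (6.75) and Gabarap (6.19). Grn moved from 3.41 without CpG to 6.07 with it, next to Psap, which moved from 7.45 to 6.02. The lowest levels in unstimulated cells were those of Mitf (-2.53), Wipi1 (-1.50), Cd63 (-0.66) and Atg4a (-0.18). Exon lengths were taken from a gene annotation that may differ from the one used for counting, which would move a gene's level but not its log2FC.

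**Figure D3:**
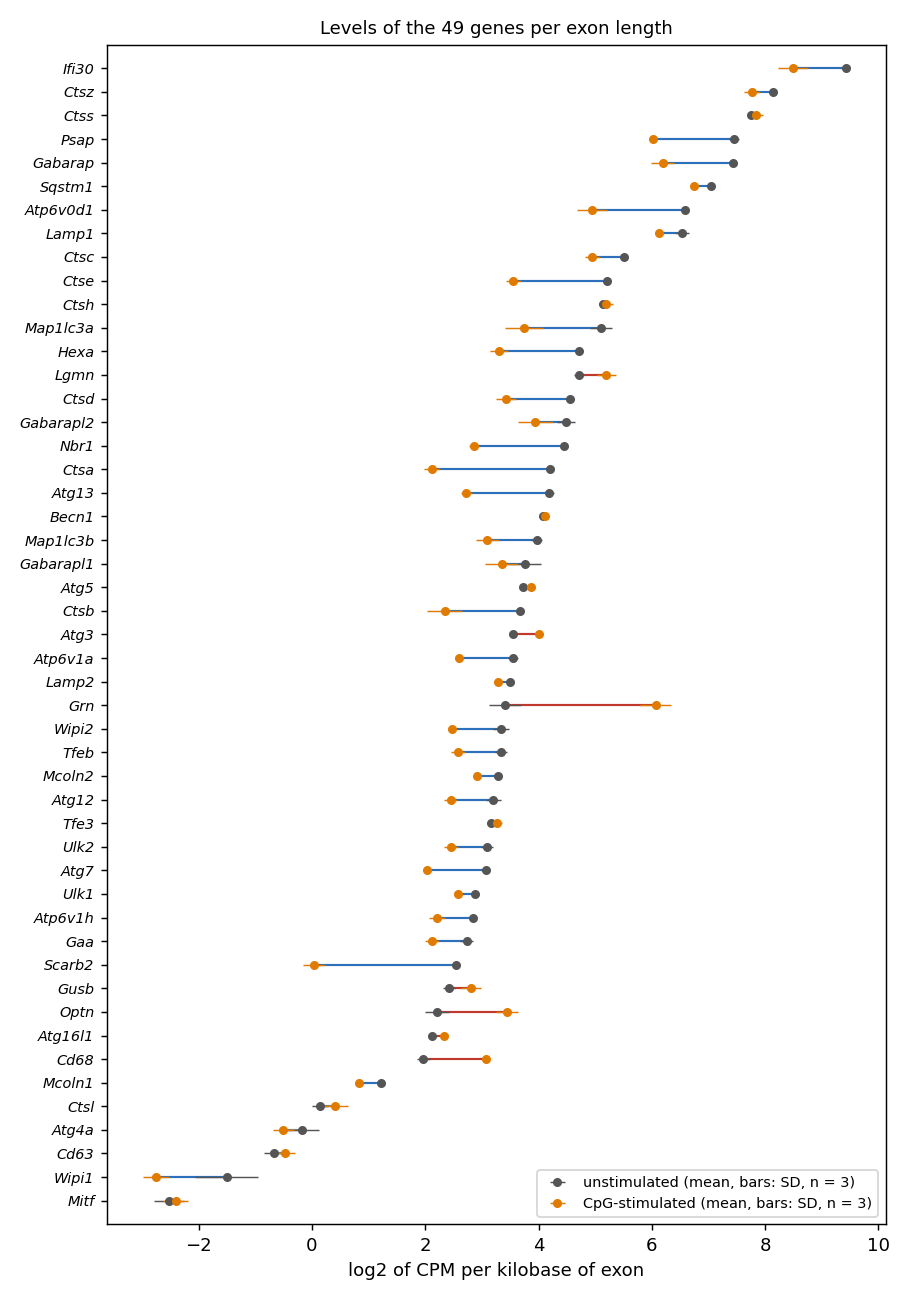
Level of each gene as log2 of CPM per kilobase of exon (x axis), with points for group means, bars for SD (n = 3) and a line from the unstimulated to the CpG-stimulated mean, blue for genes that fell, red for genes that rose and gray for the rest. Genes are ordered by the unstimulated level, from Ifi30 at 9.42 to Mitf at -2.53, and the longest lines are those of Grn and Scarb2.

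Other genes of the lysosome and of autophagy were listed by function, and these lists gave counts like those of the 49. Of 139 such genes in the data, 131 were tested: 88 (67.2%) fell, 19 (14.5%) rose and 24 did not pass the test, with a median log2FC of -0.57. A log2FC below -1 with an FDR below 0.05 was found in 43 of them, and one above 1 in 4, against 15.3% and 15.8% of all genes tested, of which 36.7% fell and 37.6% rose.

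Among these related lists, the other hydrolases and luminal proteins had the largest share that fell, with 25 of 31 (80.6%), 4 that rose and a median log2FC of -0.95. Pla2g15, the lysosomal phospholipase A2, fell with a log2FC of -3.07, and Sgsh, the sulfamidase of heparan sulfate breakdown, with one of -2.84. Hyal2, a hyaluronidase, and Plbd2, a phospholipase B-like protein, rose with log2FCs of 1.35 and 1.10. Among the other membrane proteins and transporters, 15 of 21 (71.4%) fell and 3 (14.3%) rose, against 36.7% and 37.6% of all genes tested. Laptm5, an abundant protein of lymphocyte lysosomes, fell from 10.38 to 8.44 log2 CPM, with a log2FC of -1.94. The peptide and histidine transporters of the endolysosome went in opposite directions: Slc15a4 fell with a log2FC of -1.76, and Slc15a3 rose with one of 1.53. Slc29a3, a lysosomal nucleoside transporter, rose with a log2FC of 0.998.

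Other V-ATPase subunits fell in 9 of 14 (64.3%) and rose in 3 (21.4%), against 36.7% and 37.6% of all genes tested. Atp6v0e2 and Tcirg1, subunits of the membrane sector, fell with log2FCs of -1.46 and -1.22, although Atp6v0e2 was over the level of 10 reads in only 1 CpG-stimulated sample and passed the filter through the unstimulated group, and Atp6v1f and Atp6v1c1, of the cytosolic sector, rose with log2FCs of 0.30 and 0.28. The list of mTORC1, Ragulator and folliculin, the complexes that couple nutrient sensing at the lysosome to TFEB, had 7 of 18 that fell, 4 that rose and a median log2FC of -0.02. The share that fell, 38.9%, is near the 36.7% of all genes tested. Fnip1, the partner of folliculin, and Rragd, a Rag GTPase, fell with log2FCs of -1.63 and -1.46, whereas Mtor, the kinase itself, and Mlst8, its partner, rose with log2FCs of 0.84 and 0.45.

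The other autophagy genes fell in 25 of 33 (75.8%) and rose in 2 (6.1%), against 36.7% and 37.6% of all genes tested. Plekhm1, an adaptor for fusion with the lysosome, and Vamp8, a SNARE of that fusion, fell with log2FCs of -2.47 and -2.24, and Vmp1 and Tmem41b, lipid scramblases of the endoplasmic reticulum, rose with log2FCs of 0.65 and 0.37. Genes of the HOPS complex, which tethers vesicles to the lysosome, fell in 4 of 6 (66.7%), including Vps11 (-0.97) and Vps18 (-0.76). Genes of mannose-6-phosphate sorting and the cystatins were even, with 3 of 8 in each direction. These shares of 37.5% are near those of all genes tested (36.7% fell and 37.6% rose). The cysteine protease inhibitor Cst3 fell with a log2FC of -1.56 and Gnptab, which makes the mannose-6-phosphate tag, with one of -0.51, and the sorting receptor Sort1 and the uncovering enzyme Nagpa rose with log2FCs of 1.80 and 0.81. Sort1 was near or below the level of 10 reads without CpG (-1.59, -1.07 and -0.76 log2 CPM), so the size of its change is uncertain. It was over that level in all CpG-stimulated samples, so it was tested through the group where it was high.

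**Figure D4:**
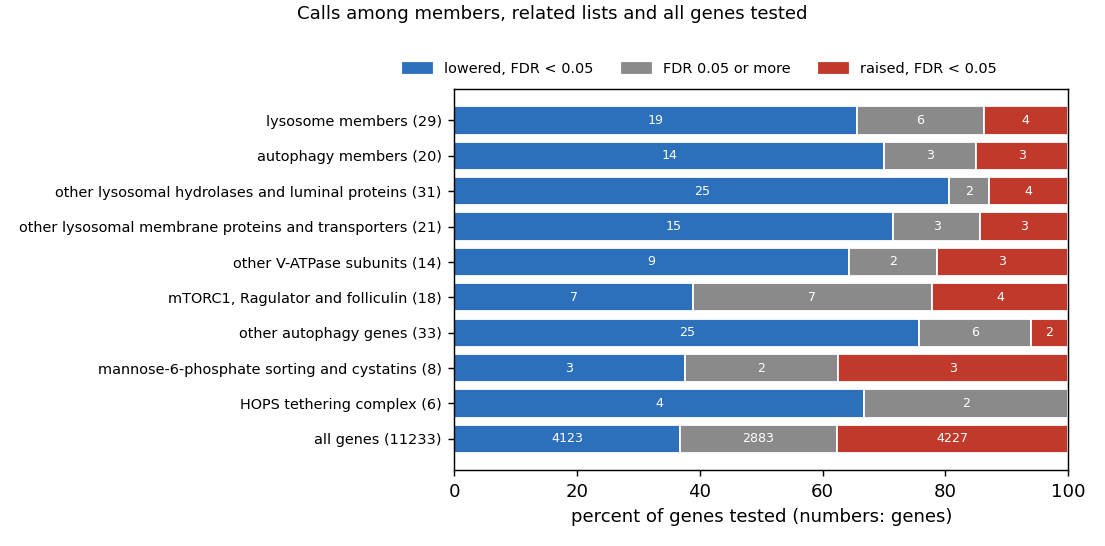
Percent of genes tested (x axis) that fell (blue), did not pass the test (gray) or rose (red) in each list, with the number of genes in each segment and the number tested beside the list name. The blue segment is 65.5% of the lysosome and 70.0% of the autophagy genes of the 49, and 36.7% of all genes tested.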

How the data were processed

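Per the study's methods and processing notes, the authors trimmed reads with Trim Galore 0.6.5, aligned them to mm10 with STAR 2.6.1a, counted them with featureCounts (Subread 2.0.1), and ran voom after quantile normalization. They deposited log2 CPM, which was tested without further change. The most common value, -5.152, stands for 0.5 reads, so every library is scaled to 17.778 M reads, with 10 reads at -0.76 and 3 reads at -2.34. These limits cover counting error only. Because of the shift by replicate number described below, they are approximate for a single gene in a single sample. Each sample summed to 992384 to 1012396 CPM, so depth per sample is not in the values.

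The test was limma's moderated test (version 3.58.1, R 4.3.3, variance trend, 2-sided, no covariates) of CpG-stimulated minus unstimulated samples, over 11233 genes with more than 10 reads in 3 samples, with Benjamini-Hochberg adjustment over all of them. The model was run on simulated data with independent noise, no shift by replicate number and a small share of changed genes. These settings differ from the data here, so that run does not show how the test performs on them. Count models were planned only if counts were found. The labels give the sex of each replicate, female for 1 and 2 and male for 3 in both groups, but do not otherwise tie samples to mice or cultures, so p values measure the spread between these samples. An exact permutation test of 3 against 3 cannot go below p = 0.1.

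Both groups have replicates 1 to 3. Deviations from the group means correlated at 0.435, 0.224 and 0.300 for equal numbers and at -0.281 to 0.0279 for others, so the numbers, which also carry the sex of the mice, were taken as pairs and a fit with a replicate block was run. In 6925 genes the groups were equal at every number (within 0.0005), and 1481 of these differed between numbers, so the deposited values carry a shift by replicate number, which also gives such correlations. Log2FC over all 6 samples is unaffected by it. The spread within groups holds it, and so do the SDs, SEs, intervals and FDRs of the fit without a block. The overlap of groups and the counts of the highest replicate rest on it too.

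All 49 genes, and the lists, were chosen with earlier results of these data known. Values for every sample are given for the 14 largest log2FC past an FDR of 0.05 and a log2FC of 1, for Tfeb, Tfe3 and Mitf and for the highest gene of each role, and those for Ctss and Cd68 were added after their values were seen. In each related list, up to 2 highest and 2 lowest log2FC with an FDR below 0.05 are named. Positions, overlaps, exon lengths and shared 75-base stretches came from GENCODE M21 (GRCm38), and promoters from RefSeq (GRCm38.p6), which matched 41 of 49 genes. Some genes are not reported here by name. The files held 0 columns of other series.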

Additional observations from a re-analysis of the deposited data

How the results depend on the processing

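Over 13 alternatives, 620 of 636 log2FC values of single genes kept their direction and their side of the threshold. The median log2FC of the 49 genes was -0.4808 when more than 10 reads were required in all 6 samples, which removed Wipi1, and it ranged from -0.569 to -0.402 when 1 sample at a time was left out; the cause of that range was not tested. With the replicate block, no call among the 49 changed (7 rose and 33 fell in the paired fit), while 7 genes of the related lists passed in it alone (Gla, Atp6v1g1, Rheb, Atg2b, Wdr45b, Igf2r and Vps39). Directions turned only in genes that did not pass the test. Ctsh ranged from -0.0215 to 0.1075 with 1 sample left out, with the low value without CpG-stimulated replicate 2, and Mitf from -0.007833 to 0.2567, with the low value without unstimulated replicate 1. With both samples numbered 2 left out, an alternative added after the data were seen, Ctsh was -0.032 and Ctss -0.0045. Calls were lost for Gabarapl1 in 6 alternatives (FDR up to 0.2837), for Gabarapl2, Gusb and Wipi1 without a filter on low values (FDR 0.1022, 0.06268 and 0.0569), for Lamp2 without unstimulated replicate 3 (FDR 0.05267) and for Atg16l1 without CpG-stimulated replicate 3 (FDR 0.05478). On the log2(CPM + 1) scale, Cd68 (0.97) fell short of a log2FC of 1 and Wipi1 (-0.64) of -1. Without a filter, 1 of the other V-ATPase subunits rose in place of 3. Wipi1, Mitf, Atg4a and Cd63 had the lowest levels of the list in log2 CPM and the largest SEs (0.35, 0.28, 0.23 and 0.20).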

Other observations

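Several genes that serve 1 breakdown route moved together or apart, and these were chosen after their values were seen. For GM2 ganglioside, Hexa (log2FC -1.43) and the activator Gm2a (-1.58) both fell. For sphingomyelin and cholesterol, Smpd1 (-2.40), Lipa (-1.44), Npc1 (-1.55) and Npc2 (-1.11) fell. For heparan sulfate, Sgsh (-2.84), Ids (-1.50) and Idua (-0.94) fell, while Naglu (0.44) and Gusb (0.40) rose. Among galactolipid enzymes, Galc rose (0.68), and Glb1 (0.13) and Gla (0.31) did not pass the test, although Gla passed with the replicate block (FDR 0.0831 without and 0.00195 with it). Around folliculin, Flcn (-1.38) fell with Fnip1 (-1.63), and Fnip2 had a log2FC of 0.65 that did not pass the test.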
